A study of Mus musculus with 18 samples.

Results

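Mesothelial and fibroblast genes were followed through 18 RNA-seq libraries of mouse peritoneal macrophages. The set held 10 genes of 13598 with a value in the deposited tables: 3 genes of the mesothelium (Msln, Upk3b and Lrrn4), 3 keratins of simple epithelium and mesothelium (Krt19, Krt8 and Krt18) and 4 genes of the fibroblast matrix (Col1a1, Col1a2, Col3a1 and Dcn). The genes were selected on their measured levels in these same libraries, so their levels and differences are given as a description and carry no test. Of the 10 genes, 9 were among the 9707 tested genes with at least 1 FPKM (fragments counted per length of transcript and per size of library) in at least 3 libraries, and Msln was not.

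The study compared cells that carry wild-type TLR4 (WT), the LPS receptor of macrophages, with cells of 2 knock-in mouse lines, TLR4-K730R and TLR4-K810R, each with a lysine of the receptor's cytoplasmic TIR domain changed to arginine. Cells of each genotype were left untreated (control) or were treated with LPS, the outer membrane lipid of gram-negative bacteria, at 100 ng/mL for 6 h, which made 6 groups of 3 libraries. Per the study's methods the mutations were made by CRISPR/Cas9 in C57BL/6 mice, and the cells were washed from the peritoneal cavity after thioglycolate, an irritant that draws macrophages there. All 6 groups therefore shared the thioglycolate treatment, no sort or gate is described for these libraries, and neither age nor the number of animals is given in the labels. Nothing states that libraries of a group came from separate animals, so p-values measure the spread between these libraries, which may be technical.

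The peritoneal cavity is lined by mesothelium, a flat sheet of cells that is held together like an epithelium and makes simple keratins, while resting on a connective tissue that fibroblasts fill with collagens and proteoglycans. In a library made from all cells together, a lower level of such a gene can reflect fewer cells or less RNA per cell, and these cannot be told apart.

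Promoter sequences are shown for 4 of the genes because they represent each kind of gene in the set and because 2 collagen genes whose levels ran together differed in these sequences. RefSeq promoters on GRCm38.p6 were matched for 6 of the 10 genes (Upk3b, Lrrn4, Krt8, Krt18, Col1a2 and Col3a1). Shown are the 250 bases before the RefSeq start, on the strand of the gene, for Upk3b at chr5:136038246-136038495, Krt18 at chr15:102027966-102028215, Col1a2 at chr6:4505368-4505617 and Col3a1 at chr1:45311288-45311537, all on the plus strand. Capitals mark any of 3 promoter motifs, each searched on both strands. The motif named TATA box was spelled TATAAA. The motif named GC box was spelled GGGCGG. The CCAAT box was searched by those 5 letters.
Upk3b: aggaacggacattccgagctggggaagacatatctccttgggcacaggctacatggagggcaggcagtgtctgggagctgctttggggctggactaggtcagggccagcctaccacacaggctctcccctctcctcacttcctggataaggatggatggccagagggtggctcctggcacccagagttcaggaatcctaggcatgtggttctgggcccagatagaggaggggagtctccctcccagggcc
Krt18: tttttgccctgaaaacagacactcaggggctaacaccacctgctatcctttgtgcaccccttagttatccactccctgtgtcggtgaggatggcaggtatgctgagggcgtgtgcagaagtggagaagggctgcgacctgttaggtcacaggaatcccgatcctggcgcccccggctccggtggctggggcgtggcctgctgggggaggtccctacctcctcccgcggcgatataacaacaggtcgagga
Col1a2: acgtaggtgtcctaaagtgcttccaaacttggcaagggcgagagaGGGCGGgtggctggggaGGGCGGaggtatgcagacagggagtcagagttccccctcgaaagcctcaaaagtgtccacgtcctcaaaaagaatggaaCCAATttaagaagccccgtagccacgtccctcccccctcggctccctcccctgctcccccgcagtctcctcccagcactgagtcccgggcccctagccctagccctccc
Col3a1: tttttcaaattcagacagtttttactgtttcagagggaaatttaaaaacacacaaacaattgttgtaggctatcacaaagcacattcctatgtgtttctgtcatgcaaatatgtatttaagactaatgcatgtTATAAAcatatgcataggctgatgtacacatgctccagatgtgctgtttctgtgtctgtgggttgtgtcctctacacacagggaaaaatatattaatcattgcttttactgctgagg
The Col1a2 window held a CCAAT box that starts 109 bases before the RefSeq start and 2 GC boxes at 205 and 188 bases before it, with a GC content of 62.0%. The Col3a1 window held none of these and 1 TATAAA at 117 bases before the start, with a GC content of 35.2%. No match was found in the windows of Upk3b, Krt18, Krt8 or Lrrn4, whose GC content was 60.8%, 60.4%, 58.0% and 59.2%. Of 32851 promoter windows of the same length, 12.4% held TATAAA, 33.8% CCAAT and 32.7% GGGCGG. The first exon listed in the deposited tables began at the RefSeq start for Upk3b and Col3a1, 36 bases before it for Krt18 and 125 bases before it for Col1a2. The Col1a2 exon start therefore lay inside the window printed, between its GC boxes and its CCAAT box.

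The labelled cell type was first checked against marker genes. Summed over the 9 listed macrophage markers, of which Lyz2 (lysozyme) and Cd68 were the highest, the level was 13712 to 15024 FPKM in WT control libraries, against 1.28 to 2.15 FPKM for the 3 mesothelial genes and 29.1 to 47.8 FPKM for the 4 matrix genes. In TLR4-K810R control libraries, where the set was highest, these sums were 11817 to 14187, 3.72 to 11.3 and 108.9 to 259.5 FPKM. The set's own marker classes gave a mixed picture. Msln (mesothelin), a surface protein that defines mesothelium, was listed at 0 in 8 of 18 libraries and did not pass 1.19 FPKM in any. Of 12 other mesothelium genes all 12 were listed and 5 passed the filter. Bnc1, Gpm6a, Muc16, Rspo1, Krt7, Pkhd1l1 and Ildr2 did not pass. Of 22 other fibroblast and matrix genes 21 were listed and 17 passed the filter. Lum (lumican) was at most 1.18 FPKM and Dpt (dermatopontin) at most 0.746 FPKM, while Fstl1 was 6.20 to 28.98 FPKM, Fbln2 5.50 to 58.8 FPKM and Serpinf1 1.20 to 12.04 FPKM. Pdgfra had no value in any library, as had the macrophage gene Itgam. The 4 matrix genes are called by that name here and not by a cell type. For Msln, Upk3b and Lrrn4 the name mesothelial likewise marks a class of genes, and the presence of mesothelial cells was not tested. A value of 0 in these tables can be a failed estimate, since the macrophage gene Cd14 was listed at 0 in 17 of 18 libraries and at 463 FPKM in the other.

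**Figure D1:**
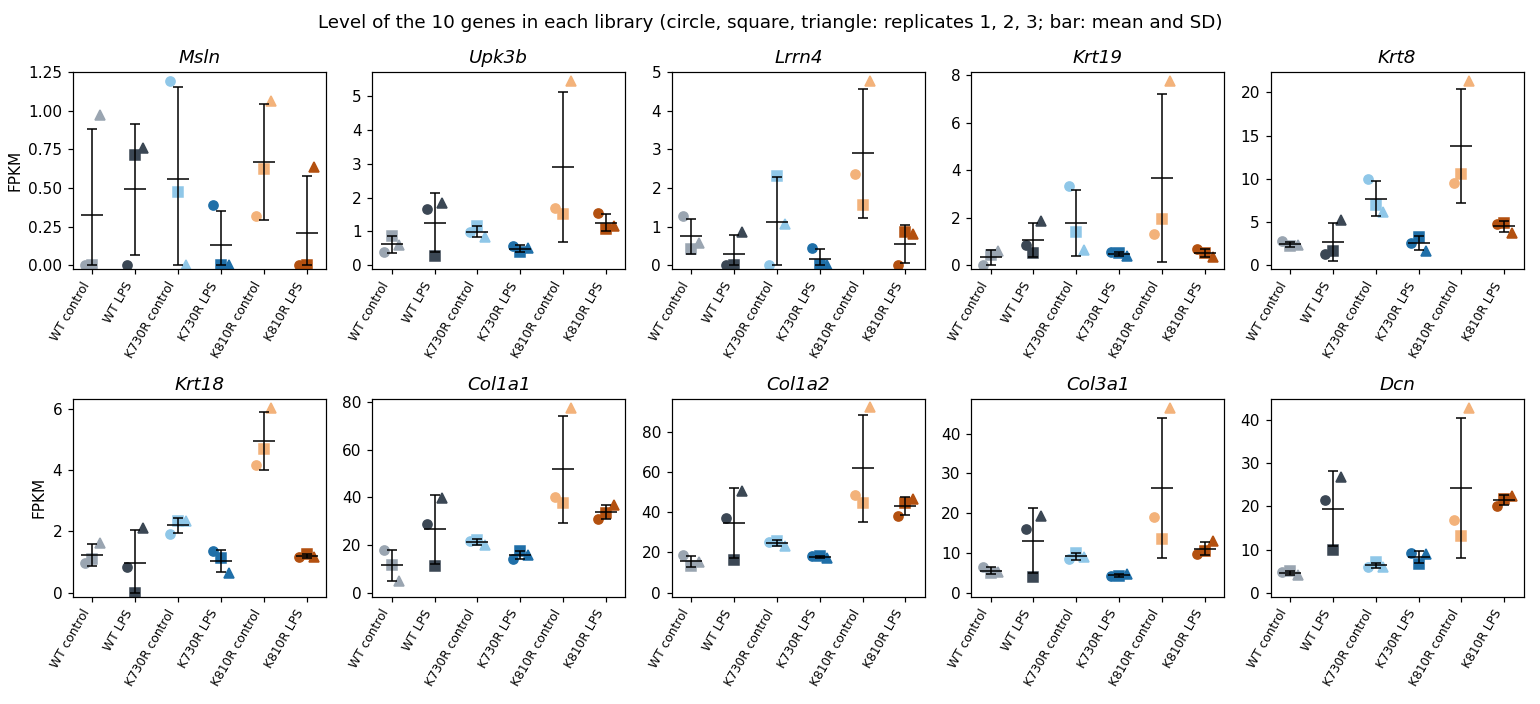
Level of the 10 genes in FPKM (y axis, a separate linear scale for each gene) in the 6 groups (x axis). Circles, squares and triangles are replicates 1, 2 and 3, and black bars show the mean and SD of 3 libraries, with the lower arm ended at 0. The TLR4-K810R control group held the highest library for 9 of 10 genes, its replicate 3.

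In GRCm38 coordinates, Msln lies at chr17:25748613-25754378 on the minus strand, Upk3b at chr5:136038496-136046487 on the plus strand and Lrrn4 at chr2:132868305-132880891 on the minus strand. Krt19 lies at chr11:100140810-100148665 (minus), and Krt8 and Krt18 are near each other at chr15:101996698-102004482 (minus) and chr15:102028180-102032027 (plus). Col1a1 lies at chr11:94936224-94953042, Col1a2 at chr6:4504814-4541544, Col3a1 at chr1:45311538-45349706 and Dcn at chr10:97479609-97518143, all on the plus strand. The values count their annotated first and last exons, so a level is that of a whole transcript end and not of a single site.

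Among the mesothelial genes, Upk3b, a uroplakin of the mesothelial and bladder surface, was the only one listed above 0 in every library. It was 0.393, 0.864 and 0.591 FPKM in WT control libraries and 1.68, 0.272 and 1.84 FPKM in WT LPS libraries. In TLR4-K730R it was 0.973, 1.16 and 0.845 FPKM in control and 0.585, 0.394 and 0.514 FPKM after LPS. In TLR4-K810R it was 1.70, 1.53 and 5.44 FPKM in control and 1.54, 1.07 and 1.17 FPKM after LPS. The TLR4-K810R control libraries were all above the WT control libraries, TLR4-K730R was lower after LPS without overlap, and no neighbouring pair of groups in the order of means was separate. Lrrn4, a leucine-rich repeat membrane protein of mesothelium, was 1.57 to 4.77 FPKM in TLR4-K810R control libraries, above 0.412 to 1.27 FPKM in WT control, and was listed at 0 in 6 libraries, 5 of them treated with LPS. Msln was 0 to 0.971 FPKM in WT control, 0 to 1.19 FPKM in TLR4-K730R control and 0.319 to 1.06 FPKM in TLR4-K810R control, and its groups overlapped at every step of the order.

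Among the keratins, Krt8, the type II keratin that pairs with Krt18 in filaments of simple epithelia, was the highest. It was 2.80, 2.26 and 2.32 FPKM in WT control libraries and 1.34, 1.64 and 5.29 FPKM in WT LPS libraries. In TLR4-K730R it was 10.02, 6.99 and 6.18 FPKM in control and 2.60, 3.34 and 1.72 FPKM after LPS. In TLR4-K810R it was 9.54, 10.52 and 21.3 FPKM in control and 4.83, 4.95 and 3.72 FPKM after LPS. Both mutant control groups stood above WT control without overlap, and in both mutants the LPS libraries lay below their controls. In WT the LPS libraries lay on both sides of the controls. Ordered by mean, Krt8 had 1 gap between neighbouring groups, from TLR4-K810R LPS (4.50 ± 0.67 FPKM, SD, n = 3) up to TLR4-K730R control (7.73 ± 2.02), and TLR4-K810R control (13.8 ± 6.5) was highest. Krt8 values rest on last exons alone, because no first exon of it passed the strand and overlap filter in any library.

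Krt18, the type I partner, followed the same order in control cells with gaps at both steps: 0.959 to 1.62 FPKM in WT, 1.90 to 2.35 FPKM in TLR4-K730R, and a further step up to 4.18 to 6.02 FPKM in TLR4-K810R. After LPS all 3 genotypes overlapped, at 0 to 2.10, 0.636 to 1.34 and 1.15 to 1.27 FPKM. The mean of Krt18 in TLR4-K810R control was 4.96 ± 0.95 FPKM (SD, n = 3), so that replicate 3 stood less far above its partners than for Krt8. Krt19, a small type I keratin, was 0 to 0.615 FPKM in WT control, 0.630 to 3.33 FPKM in TLR4-K730R control and 1.32 to 7.76 FPKM in TLR4-K810R control. It was below its control without overlap after LPS in both mutants, at 0.385 to 0.558 and 0.363 to 0.694 FPKM. Values of Krt19, Lrrn4 and Msln near or under 1 FPKM are low values of unknown depth, and the first and last exon sums of Msln were within 1.1-fold of each other in only 4 of the 10 libraries that listed it.

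Among the matrix genes, Col1a1 and Col1a2, which encode the chains of type I collagen, were the highest of the set. Col1a2 was 18.7, 13.1 and 15.1 FPKM in WT control libraries and 37.1, 16.3 and 50.6 FPKM in WT LPS libraries. In TLR4-K730R it was 25.0, 25.8 and 23.2 FPKM in control and 18.1, 18.1 and 17.4 FPKM after LPS. In TLR4-K810R it was 48.5, 44.7 and 92.4 FPKM in control and 37.9, 44.6 and 46.8 FPKM after LPS. The TLR4-K730R groups did not overlap with each other and were tight, while the WT LPS group reached from the WT control range up to that of TLR4-K810R. In the TLR4-K810R control group replicate 3 stood far above its partners, which were both above every WT control library. Col1a1 was 4.87 to 17.8 FPKM in WT control, 19.9 to 22.2 FPKM in TLR4-K730R control and 37.5 to 77.6 FPKM in TLR4-K810R control. After LPS it was 11.0 to 39.8, 14.2 to 17.7 and 31.05 to 37.01 FPKM in the same order. In both mutants the LPS libraries were below their controls on the FPKM scale but not with scaling by the median of ratios, and in WT the groups overlapped.

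Col3a1, which encodes type III collagen, was 5.01 to 6.50 FPKM in WT control, 8.38 to 10.1 FPKM in TLR4-K730R control and 13.6 to 46.5 FPKM in TLR4-K810R control. After LPS it was 4.03 to 19.4, 4.08 to 4.66 and 9.79 to 12.9 FPKM. The TLR4-K730R LPS libraries were the lowest group, below WT control without overlap. Dcn (decorin), a small proteoglycan that binds collagen fibrils, departed from the collagens. It was 4.79, 4.97 and 3.99 FPKM in WT control libraries and 21.5, 9.86 and 26.9 FPKM in WT LPS libraries. In TLR4-K730R it was 5.97, 7.09 and 5.85 FPKM in control and 9.18, 6.55 and 9.06 FPKM after LPS. In TLR4-K810R it was 16.8, 13.2 and 42.95 FPKM in control and 20.1, 21.8 and 22.4 FPKM after LPS. Dcn was the only member higher after LPS without overlap in WT, and the only one with a higher mean log2 level after LPS in each mutant, by 0.33 in TLR4-K730R and by 0.01 in TLR4-K810R. The latter value depended on TLR4-K810R control replicate 3: without it Dcn was higher after LPS by 0.49, without overlap, as were 18.7% of all tested genes.

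**Figure D2:**
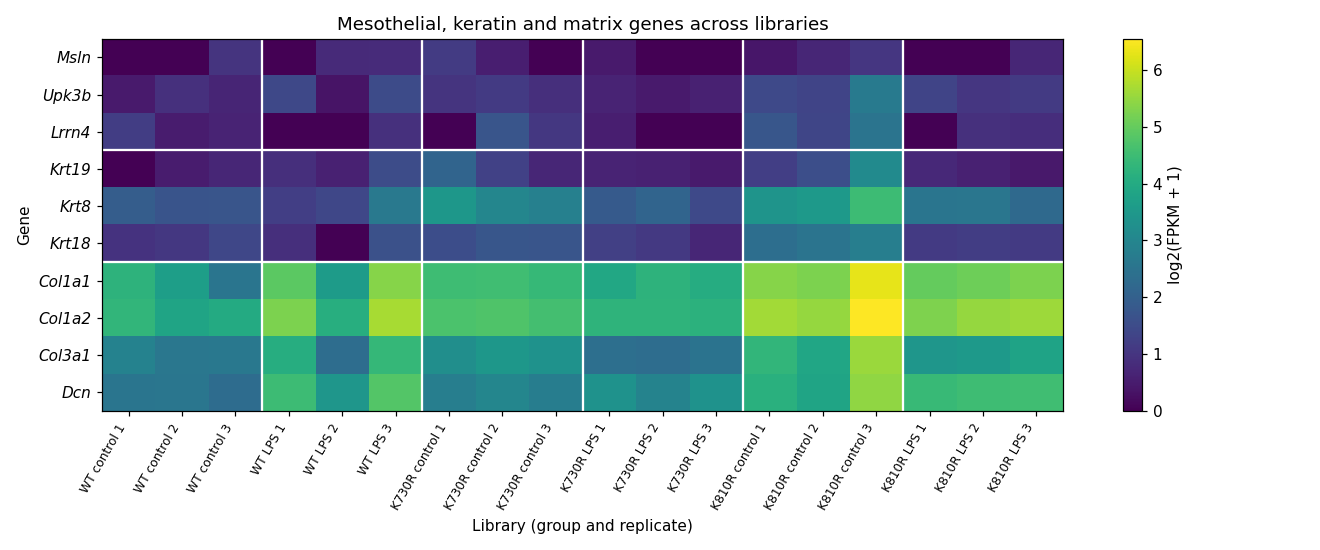
Level of each gene (rows, in 3 blocks: mesothelial, keratin and matrix genes) in each of 18 libraries (columns, 6 groups of 3), as log2(FPKM + 1) on the colour scale. The TLR4-K810R control replicate 3 column is the brightest in 9 of 10 genes, and WT LPS replicate 2 is darker than its partner replicate 3 in all 10.

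Differences between groups are given as the difference of mean log2(FPKM + 1), which understates changes of genes near 0. In untreated cells, TLR4-K810R was above WT for all 10 genes, with a median difference of 1.71 on the log2 scale, and 9 of 10 did not overlap (all but Msln). Of all 9707 tested genes, 14.2% were higher in TLR4-K810R control than in WT control without overlap, and the median difference was 0.07. The largest values were 2.15 for Col1a1 and 2.01 for Krt8. Without TLR4-K810R control replicate 3 the same count was 9 and the median 1.34. TLR4-K730R control was also above WT control for all 10, by a median of 0.59, with 7 of 10 not overlapping (the 3 keratins and the 4 matrix genes) where 8.91% of all tested genes were higher in this way. Krt8 differed most, by 1.31, and Lrrn4 least, by 0.15. These comparisons share the WT control libraries and use the contrast on which the genes were selected, so nothing more is read from the counts.

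After LPS the median of all tested genes moved by -0.28 in WT, by -0.36 for TLR4-K730R and by -0.26 for TLR4-K810R, and differences are to be read against it. In TLR4-K730R, 7 of 10 genes were lower after LPS without overlap where 45.0% of all tested genes were, and the members' median was -0.55. In TLR4-K810R, 6 of 10 were lower in this way where 37.9% of all genes were, with a median of -0.83, and of -0.41 without control replicate 3. With each library scaled by the median of its ratios to the all-library mean, 4 of 10 were lower without overlap in TLR4-K730R, where 26.5% of all tested genes were, and 4 of 10 in TLR4-K810R, where 24.7% were. On that scale Krt19, Col1a1 and Col1a2 overlapped in TLR4-K730R and Col1a1 and Col3a1 in TLR4-K810R. Dcn was higher after LPS without overlap in TLR4-K730R on that scale, as were 25.5% of all tested genes, and overlapped in TLR4-K810R. The keratins were lower by more than the matrix genes in both mutants, with medians of -0.79 against -0.43 in TLR4-K730R and of -1.37 against -0.48 in TLR4-K810R. Without TLR4-K810R control replicate 3 the latter medians were -1.01 and -0.15.

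In WT, 7 of 10 genes had a higher mean log2 level after LPS, by a median of 0.50, but only Dcn did not overlap, where 15.5% of all tested genes were higher without overlap. The matrix genes had a median of 1.05 and the keratins one of -0.03. The WT LPS libraries disagreed with each other, since replicate 2 was below replicate 3 for all 10 genes and did not pass the highest WT control library for any of the 3 collagens. Scaling by the median of ratios left 3 genes higher without overlap (Krt19, Col1a2 and Dcn), where 24.4% of all tested genes were, and turned the sign of the small Krt8 difference. Between genotypes after LPS, TLR4-K730R was below WT for 8 of 10 genes, by a median of -0.47, and only Dcn did not overlap, where 7.54% of all tested genes were lower without overlap. TLR4-K810R and WT overlapped for all 10 genes after LPS, where 17.4% of all tested genes were higher and 7.89% lower without overlap, with a median difference of 0.26 beside 0.11 for all tested genes.

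**Figure D3:**
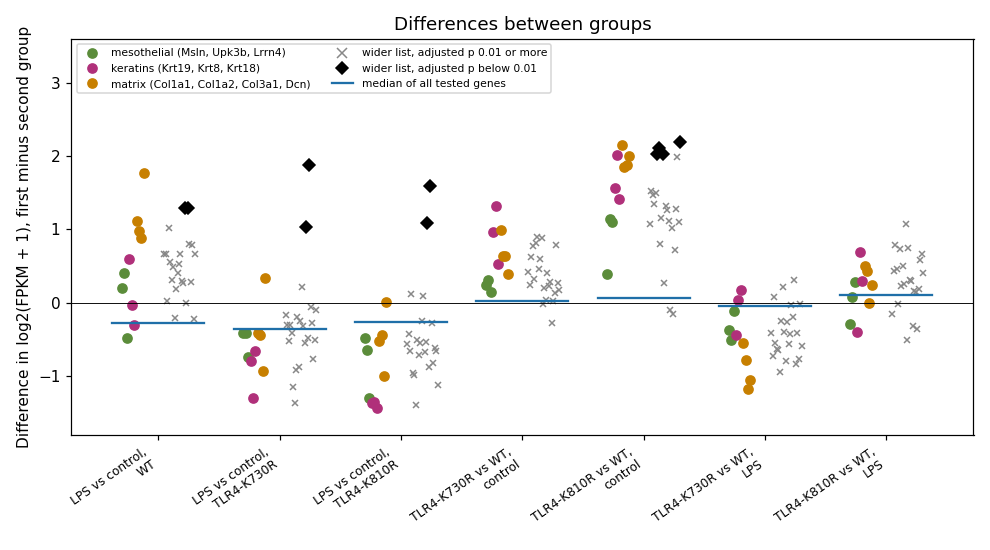
Difference in mean log2(FPKM + 1) between groups (y axis) in 7 comparisons (x axis), for the 10 genes (coloured circles, description only) and for 22 tested genes of a wider list (crosses, or black diamonds where the limma adjusted p was below 0.01). Blue lines show the median of all 9707 tested genes. In untreated TLR4-K810R cells 20 of 22 genes of the wider list lie above 0, and 4 passed the test.

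A wider list of 34 other genes of mesothelium (12) and of fibroblasts and matrix (22) was tested with limma over all 9707 genes, and 22 of its genes were tested. The list was chosen with earlier results of these data known, so its counts describe these genes and are no independent evidence of a direction. Of the 22, Fbln1 and Nkain4 passed the filter on low values only with the help of TLR4-K810R control libraries. In untreated cells, 4 of 22 rose in TLR4-K810R against WT and none fell, at an adjusted p below 0.01, where 1.58% of all tested genes were called. Wt1, a transcription factor of mesothelium, was 0.904, 0.368 and 0.786 FPKM in WT and 5.15, 5.27 and 10.5 FPKM in TLR4-K810R cells. The groups did not overlap, and the difference was 2.19 on the log2 scale (SE 0.33, limma adjusted p = 0.0014). Fbln2 (fibulin 2) was 7.83 ± 1.58 FPKM in WT and 37.5 ± 18.5 FPKM in TLR4-K810R (SD, n = 3, limma adjusted p = 0.00357). Col6a1 and Col6a2, chains of type VI collagen, rose by 2.02 and 2.11 on the log2 scale (limma adjusted p = 0.00312 and 0.00725). Sparc, a matrix-binding glycoprotein and the highest gene of the list, was 24.4 ± 3.8 FPKM in WT and 112 ± 72 FPKM in TLR4-K810R and did not pass (limma adjusted p = 0.0107). Bgn (biglycan) and Fstl1, the next in level after Sparc and Fbln2, did not pass, at 1.52 and 1.32 on the log2 scale. The median of the list was 1.28, 20 of 22 differences were above 0 (5864 of 9707 for all tested genes), and 16 were higher without overlap (1376 of 9707). The count was 0 without WT control replicate 2, 1 without WT control replicate 3 and 1 without TLR4-K810R control replicate 3, with Wt1 the gene called in both fits that gave 1.

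In TLR4-K730R against WT, none of the 22 passed in control cells, where 0.268% of all tested genes were called by limma, and 5 had an unadjusted p below 0.05, as did 747 of 9707 tested genes. Their median was 0.30 and 20 of 22 were above 0, as were 5303 of 9707 tested genes. After LPS none passed between TLR4-K730R and WT, where 0.0% of all tested genes (0 of 9707) were called by limma. At an unadjusted p below 0.05 there were 3 genes of the list and 746 of all genes. Between TLR4-K810R and WT after LPS none passed either, where limma called 0.134% of all tested genes, with 4 of the 22 and 2118 of 9707 tested genes at an unadjusted p below 0.05.

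After LPS, 2 genes of the wider list were called, and both rose, in each genotype. Pdgfrb, a receptor of pericytes and fibroblasts for platelet-derived growth factor, was 0.476 to 0.673 FPKM in WT control and 1.76 to 4.30 FPKM after LPS. It rose by 1.29 in WT, by 1.88 for TLR4-K730R and by 1.59 for TLR4-K810R on the log2 scale (limma adjusted p = 0.00114, 3.63e-05 and 0.000223). No control library reached 1 FPKM, so Pdgfrb passed the filter through LPS libraries alone and its call is not counted as support. With no filter it was called in each genotype, and with a pseudocount of 0.1 not in WT (limma adjusted p = 0.0258). Mmp2, a gelatinase that cuts basement membrane collagen, rose by 1.29, 1.03 and 1.08 (limma adjusted p = 0.00023, 0.00147 and 0.00122). It too was low in control libraries, at 0.581 to 1.06, 0.978 to 1.17 and 0.074 to 1.24 FPKM in the same order of genotypes. After LPS it was 2.78 to 3.73, 2.91 to 3.89 and 1.94 to 3.07 FPKM. In all, 4 control libraries and 9 LPS libraries reached 1 FPKM for Mmp2. Neither gene was called between untreated genotypes, with TLR4-K810R against WT at -0.16 for Pdgfrb and -0.10 for Mmp2 (limma adjusted p = 0.867 and 0.903). Col6a1 and Col6a2 in TLR4-K730R were at -1.15 and -1.36 (limma adjusted p = 0.0111 and 0.0108), and Wt1 and Col6a2 in TLR4-K810R at -1.12 and -1.39 (limma adjusted p = 0.0122 and 0.0115), short of the threshold. At an unadjusted p below 0.05 there were 6, 7 and 11 of the 22 in WT, TLR4-K730R and TLR4-K810R, beside 5255, 5378 and 4705 of all 9707 tested genes. Of the 22, 10 were lower without overlap in TLR4-K730R, where 45.0% of all tested genes were, and 7 in TLR4-K810R, where 37.9% were. Without WT LPS replicate 2 the count in WT was 6, and with scaling by the median of ratios it was 5. The share of all tested genes called by limma after LPS was 34.3% in WT, 35.8% for TLR4-K730R and 28.8% for TLR4-K810R. The list's median was 0.51 in WT, -0.31 for the K730R line and -0.59 for the K810R line, and no gene of the list fell at this threshold.

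Levels of the 3 kinds of genes went together from library to library, as Pearson's r of mean log2(FPKM + 1) over 18 libraries, which share the same normalization and come from 6 groups. It was 0.87 between mesothelial genes and keratins, 0.72 between mesothelial and matrix genes and 0.67 between keratins and matrix genes, with Spearman's rho of 0.78, 0.63 and 0.56. With group means removed it was 0.74, 0.70 and 0.70, and without TLR4-K810R control replicate 3 as well it was 0.56, 0.50 and 0.54. Each value was lower without that library. With a pseudocount of 0.1 the values with group means removed were 0.55, 0.46 and 0.66. Single genes differed: Col1a2 and Col3a1 had r = 0.97 with group means removed, while Msln and Col1a1 had -0.23. Of non-members, Bgn had the pattern most like that of the matrix genes (r = 0.98 with group means removed), followed by Mgp, Nid1, Clu and Ccnb2 (0.96 each). For the keratins these were Arl3 (0.93), Fto, Clca4b, Hand2 and Crip2 (0.91 to 0.92), and for the mesothelial genes Dpp9, Dctd, Atp9a, Igfbp6 and Plpp1 (0.87 to 0.88). Without removing group means Plpp1 had the opposite sign, r = -0.23.

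Genes of other cell types moved with these values. The 6 listed smooth muscle genes, led by Acta2 and Tagln, summed to 17.1 to 20.4 FPKM in WT control, 26.1 to 32.7 in TLR4-K730R control and 46.5 to 87.1 in TLR4-K810R control, and to 9.21 to 34.1, 14.3 to 15.7 and 32.2 to 34.3 after LPS. These sums rest mostly on Acta2, Tagln and Des. Myh11, Cnn1 and Actg2 of the same list were at 0 in every WT control library and were not tested. They were at most 1.13, 0.813 and 1.37 FPKM in any library. Acta2 rose in TLR4-K810R control against WT by 1.54 (limma adjusted p = 0.00819), and the smooth muscle level had r = 0.93 with the keratins and 0.82 with the matrix genes over 18 libraries. The 14 listed intestinal epithelium genes of 16, led by Lgals4 and Fabp1, summed to 0.118 to 0.594 FPKM in WT control, 9.04 to 43.0 in untreated TLR4-K730R cells and 14.6 to 61.6 in untreated TLR4-K810R cells. In LPS libraries the intestinal sums were 0 to 12.8, 12.9 to 17.1 and 0.127 to 6.19 FPKM, in the same order of genotypes. Fabp1, the fatty acid binding protein of liver and intestine, was listed at 0 in all 3 WT control libraries and passed against TLR4-K810R control (limma adjusted p = 0.00969). Neither Acta2 nor Fabp1 was called between these groups when any 1 of their 6 libraries was left out. The same held with a pseudocount of 0.1 or no filter (limma adjusted p = 0.0109 to 0.0171). With scaling by the median of ratios Fabp1 was not called (limma adjusted p = 0.0182), while Acta2 was. After LPS in TLR4-K810R, where the keratins were lower by the most, 3 of 5 tested intestinal genes fell, beside 1916 of 9707 tested genes. They were Fabp1 at -2.18, Muc13 (a mucin) at -1.22 and Epcam (an epithelial adhesion molecule) at -1.02 (limma adjusted p = 0.00379, 0.00684 and 0.00626). Tagln, 1 of 3 tested smooth muscle genes, fell by 1.08 on the log2 scale (limma adjusted p = 0.00537). None of these 4 was called without TLR4-K810R control replicate 3, LPS replicate 2 or LPS replicate 3 (limma adjusted p = 0.0115 to 0.0419). With scaling by the median of ratios Muc13, Epcam and Tagln were not called (limma adjusted p = 0.0142, 0.0154 and 0.0192), while Fabp1 was. With a pseudocount of 0.1 Muc13 and Epcam were not called (limma adjusted p = 0.0113 and 0.0104). None of the tested genes of either list was called by limma after LPS in WT or TLR4-K730R, where 2 of 8 (Fabp1 and Fabp2, both higher) and 2 of 8 (Acta2 and Tagln, both lower) had an unadjusted p below 0.05. The intestinal genes had r = 0.73 with the keratins and 0.31 with the matrix genes, and with group means removed and without TLR4-K810R control replicate 3 these were 0.55 and -0.10. Intestinal epithelium also makes Krt8, Krt18 and Krt19. The part of smooth muscle and intestinal cells in these values was not tested.

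Lung epithelium genes (6 of 7 listed, led by Scgb1a1 and Sftpc) reached 35.2 FPKM in the TLR4-K810R LPS group, where Scgb1a1 was 1.25, 22.0 and 30.9 FPKM, and did not pass 3.94 FPKM in other groups. In the same 3 libraries Krt8 was 4.83, 4.95 and 3.72 FPKM, and the part of lung cells in the keratin values was not tested. Endothelial genes (5 of 8 listed, led by Kdr and Cdh5) summed to at most 4.29 FPKM and adipocyte genes (3 of 6, Retn, Cfd and Plin1) to at most 0.964 FPKM. The endothelial sum was 0.928 to 2.02 FPKM in WT control and 2.73 to 4.29 FPKM after LPS, 0.575 to 1.503 and 2.38 to 3.97 FPKM for TLR4-K730R, and 0.534 to 1.67 and 1.96 to 2.20 FPKM for TLR4-K810R, without overlap in any genotype. Cdh5 rose with LPS by 1.23 in WT and by 1.13 for TLR4-K730R (limma adjusted p = 0.000532 and 0.00104), and was at 0.62 for TLR4-K810R (limma adjusted p = 0.0495), beside the calls of Pdgfrb and Mmp2. Cdh5 was at most 0.626 FPKM in control libraries and passed the filter through WT and TLR4-K730R LPS libraries alone, and with no filter both calls were made. The part of endothelial cells in those calls was not tested. None of the 8 tested macrophage markers was called by limma between TLR4-K810R and WT control, and 2 of them, Adgre1 and Csf1r, were lower at an unadjusted p below 0.05, where 1366 of 9707 tested genes differed at that p. After LPS the summed macrophage markers were lower without overlap in each genotype, at 7597 to 9725 FPKM in WT, 7904 to 10057 FPKM for TLR4-K730R and 9357 to 10323 FPKM for TLR4-K810R. Lyz2 made up most of these sums, with a mean of 12484 FPKM in WT control and 7031 FPKM in WT LPS. Means of Mertk, Cd68, Csf1r and Lyz2 were lower after LPS in each genotype, and those of Adgre1, Fcgr1, Ptprc and Spi1 higher. For Adgre1 in WT the means were 220 and 222 FPKM. The TLR4-K810R LPS sums include the Cd14 value of 463 FPKM. By limma, Mertk, Cd68, Csf1r and Lyz2 fell and Fcgr1 rose in WT and in TLR4-K730R (5 of 8 called), and in TLR4-K810R Mertk fell and Adgre1 and Fcgr1 rose (3 of 8). With scaling by the median of ratios Mertk, Cd68 and Csf1r were not called in WT, nor were Cd68, Csf1r and Lyz2 in TLR4-K730R. Mertk or Csf1r was not called in WT without control replicate 1 or 2 or any 1 LPS replicate (limma adjusted p up to 0.0315), nor Csf1r in TLR4-K730R without control replicate 1 or 3 or LPS replicate 3 (up to 0.0134), nor Adgre1 in TLR4-K810R without replicate 1 or 2 of control or 1 or 3 of LPS (up to 0.0246). The part of these changes in the members' values after LPS was not tested.

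**Figure D4:**
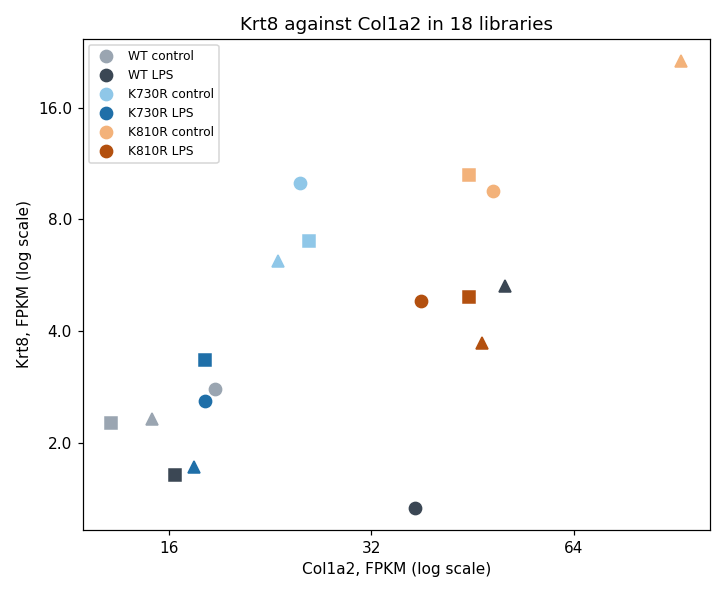
Krt8 (y axis) against Col1a2 (x axis) in 18 libraries, both in FPKM on log scales. Colours mark the 6 groups and circles, squares and triangles replicates 1, 2 and 3. In each genotype the ratio of Krt8 to Col1a2 is lower in every LPS library than in every control library, with ratios of 0.0361 to 0.105 against 0.150 to 0.172 in WT.

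The balance of keratin and collagen was followed as the ratio of Krt8 to Col1a2 FPKM, a pair chosen after the values were seen. Because both values come from the same library, its scaling cancels. The ratio was 0.150 to 0.172 in WT control and 0.0361 to 0.105 in WT LPS libraries. It was 0.266 to 0.401 in TLR4-K730R control and 0.0986 to 0.185 after LPS. It was 0.197 to 0.236 in TLR4-K810R control and 0.0796 to 0.127 after LPS. In each genotype the LPS libraries were below the control libraries without overlap, also where both genes were higher, as in WT LPS replicate 3 (5.29 and 50.6 FPKM). The ratio shows that the genes changed unequally and not which of them changed. In control cells TLR4-K730R had the highest ratio and WT the lowest, without overlap at either step, although TLR4-K810R had the highest mean level of both genes.

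First and last exon sums were within 1.1-fold of each other in 18 of 18 libraries for Col1a1, Col3a1 and Dcn, in 17 for Upk3b and in 14 for Col1a2. In the other 4 libraries the first exon of Col1a2 was the lower end, down to 4.20 against 25.0 FPKM in TLR4-K730R control replicate 1, and Krt8 had no first exon value in any. Dcn had a second first exon, chr10:97482367-97482547 in GRCm38 beside the main one at chr10:97479609-97479789, for 0 to 42.5% of its first exon level, with a median of 21.6%. This share was 2.67 to 19.5% in WT control and 22.3 to 42.5% in WT LPS libraries, which did not overlap. It was 0 to 28.7% and 10.4 to 33.3% in TLR4-K730R and 9.47 to 22.5% and 15.2 to 25.1% in TLR4-K810R, in control and after LPS, and these overlapped. The 1 skipped exon listed for Col3a1 was left out of 0 to 5.65% of its level, with a median of 2.37%, and its group ranges overlapped between control and LPS in every genotype.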

How the data were processed

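RNA-seq of total RNA from peritoneal macrophages was deposited by the authors as 1 table per library of exon events with FPKM values, with 80071 to 90401 lines each. Depth is unknown from FPKM, so no counting interval is given. The aligner and the counting tool are not given in the sources used here. The submitters' processing notes name hg18, a human build, but the gene identifiers and coordinates in the tables are those of mouse GRCm38. For each gene and library, FPKM was summed over first exons and over last exons, and the larger sum was its value, keeping events that overlap the gene on its strand in GENCODE vM21, which left out 6.24% of the FPKM. Values were tested as log2(FPKM + 1) with limma 3.58.1 in R 4.3.3, with an intensity trend and all 18 libraries in 1 fit of 6 groups, restricted to genes that reached 1 FPKM in 3 or more libraries. P-values were adjusted by Benjamini-Hochberg over all tested genes and called below 0.01, the threshold of the study's methods. Tables were handled in Python 3.11.15 with pandas 2.3.3.

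The members and all lists were chosen with earlier results of these data known. Genes named were the 10 members and, from the wider list, up to 4 called genes in each direction per comparison and the 4 highest in mean FPKM. From each other list the 2 highest were named, besides genes called beside a result and genes whose listing is described, which were chosen after their values were seen. For each kind of member the 5 other genes with the highest r, with group means removed, were named. Replicate numbers are shared between groups, but of 21 same-numbered pairs 0 had a correlation of deviations above 0.1, so they were taken as names only. The alternatives were a pseudocount of 0.1, no filter, scaling by the median of ratios, all events with the gene identifier, a replicate block and leaving out each library.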

Additional observations from a re-analysis of the deposited data

Results flagged for a closer look

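Dcn differed between TLR4-K730R and WT in opposite directions with and without LPS. In control cells all TLR4-K730R libraries were above all WT libraries, by a mean of 0.39 on the log2(FPKM + 1) scale, and after LPS all were below, by a mean of -1.05. The difference between these effects was not tested.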

How the results depend on the processing

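The number of wider list genes called kept within 1.5-fold of its value except in the following fits, and the cause was not tested. After LPS in WT the count of 2 was 1 with a pseudocount of 0.1 and 5 with scaling by the median of ratios, and 2 to 6 when single libraries were left out (6 without WT LPS replicate 2). For TLR4-K810R against WT in control cells the count of 4 was 0 to 6 without single libraries. With a replicate block, which the pairing check did not ask for, the count after LPS in TLR4-K730R was 4 instead of 2 (Col6a1 and Col6a2 were added, both lower), and the block changed no other count of the list by over 1.5-fold. Over all genes, the count of 26 for TLR4-K730R against WT in control cells was 11 with the block and 11 to 16 without single libraries, and that of 13 for TLR4-K810R against WT after LPS was 3 with the block, 8 without a filter and 1 to 283 without single libraries (283 without WT LPS replicate 3). The count of 153 for TLR4-K810R against WT in control cells was 50 to 129 without single libraries, and that of 0 for TLR4-K730R against WT after LPS was 0 to 2. Leaving out both TLR4-K810R LPS libraries with lung genes, chosen after seeing the data, left that group with 1 library, which was assumed to vary like the other groups, and gave 1657 genes instead of 2797 after LPS in TLR4-K810R and 2 of the wider list. Scaling moved the split of calls after LPS from 1012 higher and 2316 lower to 1492 and 1379 in WT, from 905 and 2568 to 1490 and 1303 in TLR4-K730R and from 881 and 1916 to 1194 and 1132 in TLR4-K810R. For TLR4-K810R against WT it moved from 90 and 63 to 70 and 69 in control cells, and from 5 and 8 to 4 and 15 after LPS.

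Of the 70 member differences, 2 changed sign with a pseudocount of 0.1 (Lrrn4 for TLR4-K730R against WT in control cells and Col3a1 for TLR4-K810R against WT after LPS) and 1 with scaling (Krt8 after LPS in WT). Over all alternatives of these differences, 662 values moved by less than 1 SD between replicates and 38 by more. Wt1 passed in 10 of 11 alternative fits for TLR4-K810R against WT in control cells (limma adjusted p from 0.00123 to 0.0116), Col6a1 and Fbln2 in 8 and Col6a2 in 5. After LPS, Pdgfrb passed in 10 of 11 in WT and in all 11 in each mutant, and Mmp2 in 10 of 11 in TLR4-K730R and in all 11 in WT and TLR4-K810R, each lost with a pseudocount of 0.1 (limma adjusted p = 0.0258 and 0.0302). Groups of 3 libraries and levels near 1 FPKM limit what the mesothelial genes can show.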
